A study of Mus musculus with 15 samples.

Results

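Fibroblasts labelled resistant were compared with fibroblasts labelled sensitive, and the genes described are those with every resistant source mean above, or every one below, both sensitive source means. Such a gene is called separated here. The 3 arrays of a source were averaged first, which makes the source the unit of comparison. Of 31191 genes tested, 8305 (26.6%) were separated, 4249 (13.6%) higher and 4056 (13%) lower in the resistant sources. The resistant sources were TAF-el4, TAF-tib42 and TAF-tib48, and the sensitive sources were NSF and TAF-tib6, 9 and 6 mouse arrays. TAF is read from the series title as tumour-associated fibroblasts, and the title names tumours refractory to anti-VEGF treatment. The meaning of NSF, el4 and the tib numbers, and the strain, age and culture of the cells, are not given in the sources used here. On every array the fibroblast RNA was in the Cy5 channel and a commercial mouse reference RNA in the Cy3 channel. Values are log2 ratios of Cy5 to Cy3, and a difference of 1 is 2-fold. The labels number the 3 arrays of a source without saying whether they came from separate cultures or animals, and with 1 source per name each source may be 1 isolate.

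Fibroblasts build the extracellular matrix and secrete growth factors, chemokines, complement proteins and proteases into their surroundings. In tumours such cells are known as a source of ligands that act on blood vessels, among them VEGF and PDGF family members, and PDGF-C signals through PDGF receptor alpha. Small leucine-rich proteoglycans such as decorin bind collagen fibrils, complement proteins of the classical pathway are cleaved in sequence by C1r and C1s, and mitotic kinases and kinetochore proteins drive chromosome segregation in dividing cells.

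Arrays were comparable in signal. Median Cy5 intensity ran from 174.7 to 285.9 per array against a background of 52 to 56, and their number limits the precision. Log2 ratios correlated over genes at 0.9601 to 0.9877 between arrays of 1 source and at 0.8413 to 0.9484 between sources. By source means, TAF-el4 correlated at 0.923 with NSF and 0.918 with TAF-tib6, against 0.88 with TAF-tib42 and 0.902 with TAF-tib48. TAF-tib42 and TAF-tib48 correlated with each other at 0.915, and NSF and TAF-tib6 at 0.953. The third TAF-tib48 array stood apart from the other 2 of its source, with correlations of 0.9619 and 0.9601 to them, and 26 genes had an SD over 0.5 between TAF-tib48 arrays against 1 to 6 genes in the other sources. Counts and genes that moved most without this array are given both ways. Slide packs were inferred from runs of neighbouring slide barcode numbers, not read from a label. These runs placed NSF with 2 TAF-el4 arrays in 1 pack and TAF-tib6 with 2 TAF-tib48 arrays in another. Those comparisons could thus be made within an inferred pack. All 17 fibroblast markers that were listed were well above background on every array. The same held for all 17 macrophage markers tested, so this flag does not tell cell types apart. The summed log2 Cy5 signal of the fibroblast markers was 17.94 to 18.02 per source, against 11.65 to 11.75 for the macrophage markers. Sums in between were found for pericyte and smooth muscle markers (15.57 to 15.93) and for lymphocyte and lymphoma markers (14.05 to 14.66). Of the fibroblast markers, 4 were separated lower (Col6a1, Dcn, Lum and Pdgfra, the arrays of all but Lum without overlap) and S100a4 and Vim higher, with a list median of -0.08. Of the macrophage markers, 4 (Csf1r, Tyrobp, Fcgr3 and C1qa) were separated higher, against 13.6% of all genes tested. The part of these markers in the results was not tested.

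Most separations were small. The gap, the smallest of the 6 differences between a resistant and a sensitive source mean, had a median of 0.035 in each direction, below the median SD of 0.053 between arrays of a source. A gap over 0.5 was found for 9 genes higher and 63 lower, and a gap over 1 for 2 and 12. Without the third TAF-tib48 array a gap over 0.5 was found for 14 genes higher and 66 lower. All 9 resistant arrays lay beyond all 6 sensitive arrays for 549 genes higher (12.9% of those separated and 1.76% of all tested) and 769 lower (19% and 2.47%). Without the third TAF-tib48 array these were 785 (2.52% of all tested) and 888 (2.85%). At the edge of the rule, Ldb2 had source means of 0.17 in TAF-el4 and 0.17 in NSF and counted as lower, and Olfr353 had 0.16 in both of these and counted as higher. Dmac2, with 0.05 in TAF-tib42 and in TAF-tib6, and Lztr1, with -0.12 in TAF-tib48 and in TAF-tib6, just missed it. Without the third TAF-tib48 array Lztr1 was separated lower, with a gap of -0.05.

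Only 1 gene passed the test on the 5 source means by limma with Benjamini-Hochberg adjustment (0.00321% of those tested). The next lowest adjusted p was 0.214. At an unadjusted p under 0.05 lay 2879 genes, 1412 higher and 1467 lower, and the median difference over all genes was -0.002. The gene that passed was Mela, a melanoma antigen gene encoded by an endogenous retrovirus. Its log2 ratio was 0.25, 0.64 and 1.15 at the lowest, median and highest of the 9 resistant arrays, and -4.51, -4.31 and -4.19 at those of the 6 sensitive arrays. The 2 groups of arrays were thus far apart. Mela rose by 4.95 (SE 0.196, adjusted p = 0.0412, 30.9-fold; higher in 3 of 3 resistant sources). Its spot was well above background on every array and saturated on 1, and the probe was the only one of the gene. Within slide packs the difference was 4.71 for TAF-el4 against NSF and 5.19 for TAF-tib48 against TAF-tib6. The call was lost without background subtraction (adjusted p = 0.0662), after scaling of the log ratios (adjusted p = 0.0569) and on leaving out NSF (adjusted p = 0.301), TAF-tib6 (adjusted p = 0.342), TAF-tib42 (adjusted p = 0.137) or TAF-tib48 (adjusted p = 0.0797), and the difference remained above 4 in each of these. The other genes below did not pass the test, and their values are given as descriptions of the 5 sources.

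**Figure D1:**
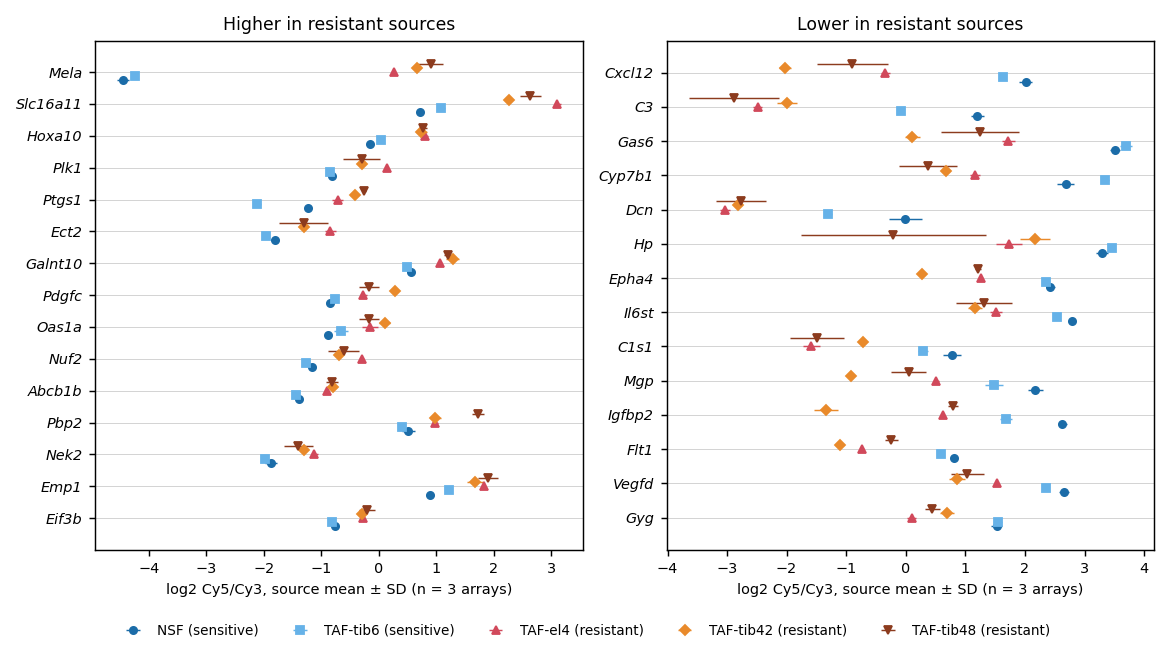
Log2 Cy5/Cy3 of the genes named for the largest gaps, 15 higher and 14 lower, as source means ± SD over 3 arrays, with sensitive sources in blue and resistant sources in red, orange and brown. Mela spans the widest gap (4.51), and the widest bar on the lower side is that of Hp in TAF-tib48 (SD 1.56).

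After Mela, the widest gap on the higher side was that of Slc16a11, a member of the monocarboxylate transporter family. Its arrays ran from 2.25 over 2.66 to 3.18 in resistant and from 0.69 over 0.90 to 1.15 in sensitive sources, so the array values did not overlap. The difference was 1.77 (SE 0.265, adjusted p = 0.256, gap 1.17). TAF-el4 was highest at 3.10 ± 0.06 (SD, n = 3 arrays). Of 15 transporters of this family tested, 4 were separated higher and 4 lower, against 13.6% and 13% of all genes tested. Slc16a1, the lactate and pyruvate carrier MCT1, was among the lower ones, with resistant arrays at -1.51 to -1.02 and sensitive arrays at -0.77 to -0.37 and a difference of -0.70 (SE 0.138, adjusted p = 0.308). Its other probes differed by -0.56 and -0.07. Slc16a4 lay lower too (difference -0.61, adjusted p = 0.407; -0.10 at its second probe).

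Ptgs1, the constitutive cyclooxygenase COX-1 of prostaglandin synthesis, had resistant arrays from -0.78 over -0.45 to -0.23 and sensitive arrays from -2.17 over -1.65 to -1.21. The array values did not overlap, but the sensitive sources themselves were apart, with NSF at -1.23 ± 0.03 and TAF-tib6 at -2.12 ± 0.07. The difference was 1.21 (SE 0.287, adjusted p = 0.354). Abcb1b encodes a P-glycoprotein drug efflux pump, and its arrays lay at -0.93 to -0.70 in resistant and -1.48 to -1.37 in sensitive sources. It differed by 0.57 (SE 0.0516, adjusted p = 0.214), with other probes at 0.27 and -0.01. Emp1, an epithelial membrane protein gene, differed by 0.75 (SE 0.119, adjusted p = 0.256) and Galnt10, an enzyme that starts mucin-type O-glycosylation, by 0.66 (SE 0.0771, adjusted p = 0.247). The translation initiation factor subunit Eif3b differed by 0.53 (SE 0.047, adjusted p = 0.214), and by 0.36 at its second probe. Pbp2 differed by 0.78 (SE 0.247, adjusted p = 0.449), with TAF-tib48 at 1.72 against 0.98 and 0.99 in the other resistant sources.

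Among 39 lists, the cell cycle genes had the highest share separated in 1 direction. The counts of each list are to be read against the 13.6% higher and 13% lower of all genes tested. Of 49 tested, 37 lay higher and 1 lower, and their median difference was 0.38 against -0.002 for all genes. The lower one was Ccnd3, a D-type cyclin, at -0.10 (adjusted p = 0.592). The 11 that were not separated included the other D-type cyclins Ccnd1 and Ccnd2, the kinases Cdk2 and Cdk4, and Rrm1 and Tyms of nucleotide synthesis. The shift differed among the resistant sources: relative to the mean of both sensitive sources, the list's median was 0.66 in TAF-el4, 0.23 in TAF-tib42 and 0.22 in TAF-tib48. TAF-el4 was the highest of the 5 sources for 43 of the 49 genes. In TAF-el4 against NSF within a slide pack 47 genes were higher (median 0.62), and in TAF-tib48 against TAF-tib6 within a pack 42 were higher (median 0.21).

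Plk1, the polo-like kinase that controls entry into and passage through mitosis, had resistant arrays from -0.66 over -0.23 to 0.15 and sensitive arrays from -0.87 over -0.83 to -0.78. The groups did not overlap, and the lowest resistant array was the third of TAF-tib48. Its difference was 0.68 (SE 0.146, adjusted p = 0.334). TAF-el4 stood at 0.14 ± 0.02, TAF-tib42 at -0.29 ± 0.04 and TAF-tib48 at -0.30 ± 0.33. Cdc20, an activator of the anaphase-promoting complex, also had TAF-el4 highest, at 0.29 ± 0.02, TAF-tib48 at -0.40 ± 0.40 and TAF-tib42 at -0.57 ± 0.06 against -0.90 ± 0.03 in NSF and -1.06 ± 0.04 in TAF-tib6. Its difference was 0.75 (SE 0.263, adjusted p = 0.49).

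Top2a, the topoisomerase that untangles chromosomes, differed by 0.60 (SE 0.111, adjusted p = 0.284), and by 0.18 at its second probe. Prc1, a microtubule bundler of the central spindle, differed by 0.57 (SE 0.12, adjusted p = 0.323). For Ube2c, the ubiquitin carrier of the anaphase-promoting complex, and Birc5, survivin of the chromosomal passenger complex, the differences were 0.63 (adjusted p = 0.419) and 0.59 (adjusted p = 0.473), but array values overlapped unless the third TAF-tib48 array was left out. Outside the list, 3 further mitotic genes were among the 15 widest higher gaps. These were Ect2, an exchange factor needed for cytokinesis (0.74, SE 0.162, adjusted p = 0.34), the kinetochore subunit Nuf2 (0.69, SE 0.128, adjusted p = 0.285) and the centrosomal kinase Nek2 (0.65, SE 0.093, adjusted p = 0.256). The second probe of Ect2 differed by -0.01.

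The array values of 8 cell cycle genes did not overlap between groups: Cdc20, Top2a, Plk1, Bub1b, Cenpe, Kif23, Foxm1 and Prc1. Over all genes tested this held for 1.76%. Without the third TAF-tib48 array the number was 29, against 2.52% of all genes, with 38 genes separated higher and the list's median at 0.43. Without TAF-el4 the median was 0.24. The third TAF-tib48 array lay below the other 2 of its source for Plk1 (-0.66 against -0.23 and -0.02).

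**Figure D2:**
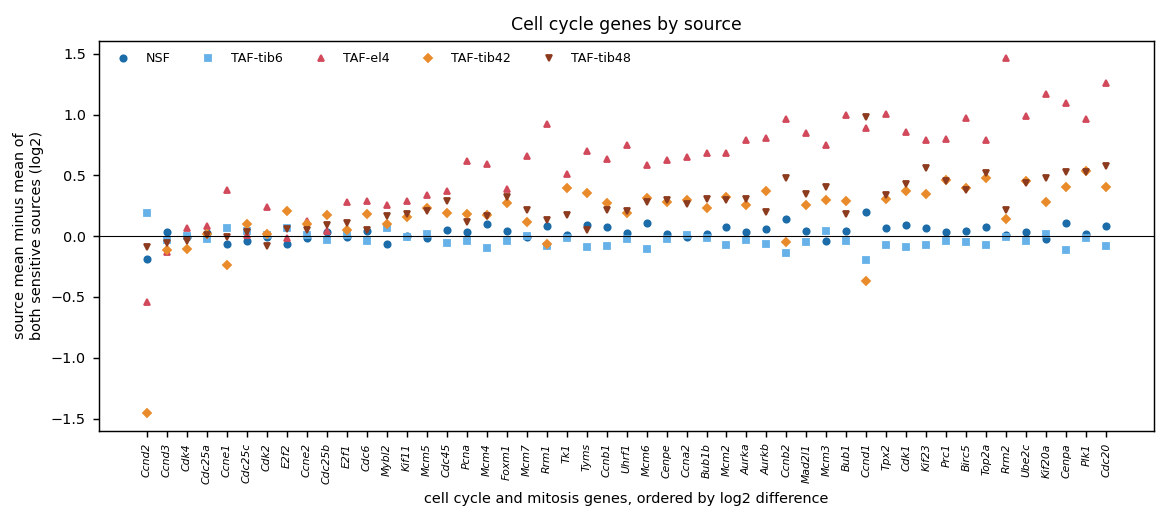
Source mean minus the mean of both sensitive sources (log2) for the 49 cell cycle and mitosis genes tested, ordered by the difference between resistant and sensitive sources, with 1 symbol per source. TAF-el4 (triangles) has the highest value in 43 genes, and TAF-tib42 has the lowest value of the plot, in Ccnd2.

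The promoters of the 6 list genes with the widest gap are shown because the cell cycle genes lay higher together. Each line gives the 150 bases before the start of the gene, 5′ to 3′ on the gene's strand, from RefSeq on GRCm38.p6 (for Prc1, the first of 2 listed promoters). Capitals mark CCAAT (the CCAAT box) and TTTGAA (a form of the cell cycle homology element, CHR), or their reverse complements ATTGG and TTCAAA.
Plk1 (chr7:122159285-122159434, plus strand): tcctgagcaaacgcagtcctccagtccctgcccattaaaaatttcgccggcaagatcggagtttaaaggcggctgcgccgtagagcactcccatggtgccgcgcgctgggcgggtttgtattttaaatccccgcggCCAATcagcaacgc
Prc1 (chr7:80294301-80294450, plus strand): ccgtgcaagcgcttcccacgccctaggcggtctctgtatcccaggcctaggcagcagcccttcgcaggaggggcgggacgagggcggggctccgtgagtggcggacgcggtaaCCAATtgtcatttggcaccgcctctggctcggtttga
Top2a (chr11:99024190-99024339, minus strand): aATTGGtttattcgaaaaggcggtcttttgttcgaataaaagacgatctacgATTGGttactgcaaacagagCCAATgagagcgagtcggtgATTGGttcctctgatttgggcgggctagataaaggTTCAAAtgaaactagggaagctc
Ube2c (chr2:164769779-164769928, plus strand): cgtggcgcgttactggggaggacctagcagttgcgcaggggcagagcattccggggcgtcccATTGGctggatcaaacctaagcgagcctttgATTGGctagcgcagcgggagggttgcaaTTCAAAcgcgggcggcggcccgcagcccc
Birc5 (chr11:117849087-117849236, plus strand): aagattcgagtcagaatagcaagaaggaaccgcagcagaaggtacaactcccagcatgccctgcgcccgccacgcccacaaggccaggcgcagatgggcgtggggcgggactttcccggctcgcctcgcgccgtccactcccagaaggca
Cdc20 (chr4:118437344-118437493, minus strand): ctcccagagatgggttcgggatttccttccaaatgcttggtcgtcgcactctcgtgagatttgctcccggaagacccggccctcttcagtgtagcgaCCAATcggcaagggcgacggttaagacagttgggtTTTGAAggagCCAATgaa

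In windows from 250 bases before to 50 after the start, searched on both strands, CCAAT was present in 24 of the 30 cell cycle genes separated higher that had a promoter in the table (80%; 30 of 37 genes had one), against 37.9% of all 27025 promoters in the table. TTTGAA was present in 13 (43.3%) against 18.1%, and both together in 13 (43.3%) against 7.12%. A promoter was counted for each motif whether or not matches of the other overlapped. Among all genes separated higher, 1991 of 2476 symbols had a promoter, 40.2% with CCAAT and 17.6% with TTTGAA. For genes separated lower the comparison is void, since only 1616 of 2068 symbols (78.1%) had a promoter, below the minimum of 80% set for such a comparison. For the whole cell cycle list tested it is void likewise, with a promoter for 39 of 49 genes (79.6%). Whether the motifs go with being separated or with being a cell cycle gene was not tested. The 4 CCAAT boxes of Top2a above and the 2 each of Ube2c and Cdc20 are the densest of the 6, and Birc5 held neither motif. A match in these letters is a description of the sequence only.

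Of the cell cycle inhibitors and p53 targets, 6 of 31 lay higher and 9 lower (median -0.12). Among the lower ones were Trp53inp1, a p53-induced nuclear protein gene (-0.71, SE 0.183, adjusted p = 0.374; -0.38 at its second probe), Gadd45g of the growth arrest and DNA damage family (-0.74, adjusted p = 0.541) and Zmat3 (-0.68, adjusted p = 0.664). Plk2, a p53-inducible polo-like kinase, lay higher (0.41, adjusted p = 0.352). Gas1, a growth arrest gene that also binds Hedgehog ligands, had resistant arrays from -2.41 over -1.55 to -0.88 and sensitive arrays from -0.28 over -0.12 to -0.11. Those array values did not overlap, and the difference was -1.39 (SE 0.335, adjusted p = 0.357).

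Among the PDGF ligands and receptors, 2 of 7 were separated higher and 2 lower. Pdgfc, a ligand of PDGF receptor alpha, had resistant arrays from -0.36 over -0.08 to 0.30 and sensitive arrays from -0.91 over -0.80 to -0.71. No resistant array reached down to a sensitive one. TAF-tib42 was highest at 0.28 ± 0.03, followed by TAF-tib48 at -0.17 ± 0.17 and TAF-el4 at -0.27 ± 0.07, the latter pair within their spread of each other. The difference was 0.76 (SE 0.171, adjusted p = 0.344; 0.55 within each of the 2 slide packs), and 0.67 at the second probe. Pdgfa, another alpha-receptor ligand, lay higher by 0.33 (SE 0.12, adjusted p = 0.498) with overlapping arrays and a gap of 0.06, and its second probe, at 0.22, was not separated. Without the third TAF-tib48 array the Pdgfa arrays did not overlap, and the gap was 0.14.

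The receptor Pdgfra itself lay lower. Its arrays ran from -0.26 over 0.27 to 0.57 in resistant and from 0.90 over 1.15 to 1.32 in sensitive sources, without overlap, and the difference was -0.91 (SE 0.208, adjusted p = 0.344). The second Pdgfra probe differed by only -0.07. Pdgfd, a ligand of PDGF receptor beta, differed by -0.24 (adjusted p = 0.458). Pdgfb (0.01), its receptor Pdgfrb (-0.03) and Pdgfrl (-1.27, adjusted p = 0.596) were not separated. For Pdgfrl, TAF-tib6 stood at -0.47, whereas NSF at -2.23 lay among the resistant sources.

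Of 23 angiogenic ligands, 1 lay higher and 5 lower (median -0.18). The higher one was Angptl2, an angiopoietin-like secreted factor, with arrays at 0.05 to 0.38 in resistant and -0.38 to -0.19 in sensitive sources (difference 0.57, SE 0.0939, adjusted p = 0.256). Vegfd, a ligand of the VEGF family, had resistant arrays from 0.71 over 1.04 to 1.54 and sensitive arrays from 2.31 over 2.49 to 2.72. The array values did not overlap, and the difference was -1.37 (SE 0.218, adjusted p = 0.256). Flt1, which encodes VEGF receptor 1 and its soluble form, had resistant arrays from -1.19 over -0.73 to -0.14 and sensitive arrays from 0.53 over 0.70 to 0.84. Its 2 probes differed alike, by -1.39 (SE 0.258, adjusted p = 0.283) and -1.37.

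Adm, the vasodilator peptide adrenomedullin, differed by -0.96 (SE 0.159, adjusted p = 0.256) and Hgf, the ligand of the Met receptor, by -0.85 (SE 0.215, adjusted p = 0.372; -0.54 at its second probe). Angptl4 differed by -1.15 (SE 0.384, adjusted p = 0.472), with TAF-el4 at 0.90 close to the sensitive sources. Vegfa, the ligand that anti-VEGF antibodies bind, was not separated: its arrays lay at -0.07 to 0.37 in resistant and 0.10 to 0.48 in sensitive sources, with a difference of -0.08 (SE 0.137, adjusted p = 0.883; other probes -0.05 and -0.22). Of 17 angiogenesis inhibitors 4 were separated, all lower, among them Thbs1, thrombospondin-1 (-0.94, adjusted p = 0.598; its other probes -0.88 and -0.74). Flt1 is counted in this list.

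**Figure D3:**
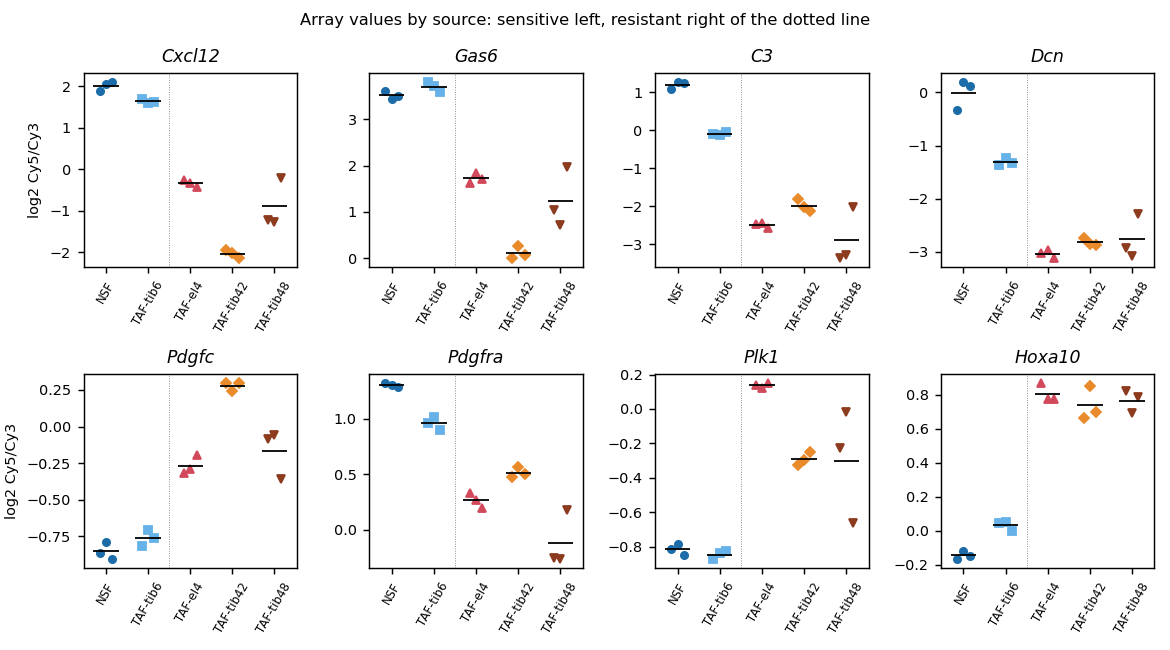
Log2 Cy5/Cy3 of each array for 8 genes, with sources on the horizontal axis, sensitive sources left and resistant sources right of the dotted line, and a bar at each source mean of 3 arrays. The arrays of the 2 groups do not overlap in any of the 8 genes, and the third TAF-tib48 array lies nearer to the sensitive sources than the other 2 for Cxcl12, Gas6, C3, Dcn, Pdgfc, Pdgfra and Plk1.

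Gas6 is a vitamin K-dependent ligand of the TAM receptors Tyro3, Axl and Mertk. Its arrays ran from 0.01 over 1.03 to 1.98 in resistant and from 3.428 over 3.6 to 3.798 in sensitive sources, with no overlap. TAF-tib42 was lowest at 0.11 ± 0.13, TAF-tib48 stood at 1.24 ± 0.66 and TAF-el4 at 1.72 ± 0.10. The difference was -2.58 (SE 0.474, adjusted p = 0.283, gap -1.79). Pros1, protein S, the other ligand of this list, differed by -0.63 (SE 0.206, adjusted p = 0.463; -0.54 at its second probe) with array values that did not overlap. The 3 receptors were separated higher, but with overlapping arrays and gaps of 0.15 for Axl (difference 0.49, SE 0.13, adjusted p = 0.387), 0.003 for Mertk (0.18, and -0.04 from Cy5 intensity alone) and 0.001 for Tyro3 (0.06).

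Within the IGF axis, 6 of 15 genes lay lower and none higher (median -0.10); none was called by limma. Igfbp2, a binding protein of insulin-like growth factors, had resistant arrays from -1.55 over 0.63 to 0.90 and sensitive arrays from 1.601 over 2.18 to 2.71. TAF-tib42 was far below the rest at -1.34 ± 0.20, and the difference was -2.13 (SE 0.725, adjusted p = 0.478). Igf2r, the receptor that clears IGF2, differed by -0.65 (SE 0.11, adjusted p = 0.256). The IGF binding protein protease Pappa differed by -1.23 (SE 0.417, adjusted p = 0.476; -0.74 at its second probe), with overlapping arrays and TAF-el4 at 1.75 near the sensitive sources.

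Complement genes were among the widest gaps on the lower side, although the list as a whole was spread, with 6 of 24 lower, 1 higher and a median of -0.04. C3, the central complement component, had resistant arrays from -3.36 over -2.42 to -1.80 and sensitive arrays from -0.12 over 0.52 to 1.27. The groups did not overlap, and the sensitive sources differed among themselves, with NSF at 1.20 ± 0.11 and TAF-tib6 at -0.08 ± 0.04. The difference was -3.01 (SE 0.446, adjusted p = 0.256). The second C3 probe differed by -0.05 and was not separated, so the large value rests on 1 probe. With the median over both probes in place of the brighter one the difference was -1.53.

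C1s1 and C1ra encode serine proteases of the C1 complex. C1s1 differed by -1.80 (SE 0.306, adjusted p = 0.256; -0.96 at its second probe), with resistant arrays at -1.81 to -0.67 and sensitive arrays at 0.19 to 0.92. C1ra differed by -1.46 (SE 0.466, adjusted p = 0.451) and C4b, a component cleaved by C1s, by -0.94 (SE 0.247, adjusted p = 0.387). For C1ra the resistant source nearest the sensitive ones was TAF-tib42 at 0.33, against 0.68 in TAF-tib6.

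Of 21 acute phase genes, 8 lay lower and 1 higher (median -0.08). Hp, the haemoglobin-binding haptoglobin, had resistant arrays from -1.16 over 1.80 to 2.35 and sensitive arrays from 3.22 over 3.42 to 3.51. The array values did not overlap, but the 3 TAF-tib48 arrays spread from -1.16 and -1.05 to 1.58. The difference was -2.15 (SE 0.724, adjusted p = 0.473), and -2.45 without the last of these arrays. The copper oxidase Cp (-1.17, SE 0.355, adjusted p = 0.431), the protease inhibitor Serpina3n (-0.95, SE 0.231, adjusted p = 0.359) and the lipopolysaccharide-binding protein gene Lbp (-0.94, SE 0.288, adjusted p = 0.434) also lay lower, each without overlap of arrays. Over the list this held for 5 genes, against 2.47% of all genes tested. Lcn2 lay lower with overlapping arrays (-0.69, adjusted p = 0.581). Il6st encodes gp130, the shared signalling receptor of the interleukin-6 family. Its arrays ran from 0.98 over 1.30 to 1.85 in resistant and from 2.51 over 2.65 to 2.84 in sensitive sources, apart from each other by array, with a difference of -1.33 (SE 0.131, adjusted p = 0.234).

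Cxcl12, the chemokine SDF-1 that signals through CXCR4, had the widest gap on the lower side. Its arrays ran from -2.14 over -1.21 to -0.21 in resistant and from 1.59 over 1.79 to 2.10 in sensitive sources. No resistant array came near a sensitive one. TAF-tib42 was lowest at -2.03 ± 0.10, then TAF-tib48 at -0.90 ± 0.60 and TAF-el4 at -0.34 ± 0.08. The difference was -2.91 (SE 0.504, adjusted p = 0.261, gap -1.97), and -3.57 at the second probe. The scavenging receptor Ackr3, which also binds Cxcl12, differed by -0.72 (adjusted p = 0.59) with a gap of only -0.02. In the list of 18 CXC chemokines and receptors, 2 lay lower and 1 higher, no more than the 13% and 13.6% of all genes tested.

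Of 16 CC chemokines 4 lay lower and 3 higher, against 13% and 13.6% of all genes tested. The eosinophil chemoattractant Ccl11 had resistant arrays at 0.07 to 0.22 and sensitive arrays at 0.67 to 1.15 (difference -0.79, SE 0.0789, adjusted p = 0.234). Ccl8 differed by -0.90 (SE 0.0921, adjusted p = 0.234), again with no overlap. Ccl7 differed by -1.05 (adjusted p = 0.576; -0.996 at a second probe that was not separated), with TAF-tib42 at 3.09 beside the sensitive sources. Among 21 cytokines 6 lay lower and 1 higher, the latter being Mif with a gap of 0.002. The lower ones included the alarmin Il33 (-0.90, adjusted p = 0.528, gap -0.13) and the interleukin-1 receptor antagonist Il1rn (-0.84, adjusted p = 0.594, gap -0.04). The second probe of Il1rn was not separated.

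Interferon response genes were mostly not separated. Of 41, 2 lay higher and 1 lower, while the list's median relative to the sensitive sources was 0.81 in TAF-tib42, -0.01 in TAF-tib48 and -0.19 in TAF-el4. Oas1a, an oligoadenylate synthetase of antiviral defence, was the exception by array, with resistant arrays at -0.31 to 0.21 and sensitive arrays at -0.95 to -0.58 (difference 0.70, SE 0.114, adjusted p = 0.256).

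Matrix genes lay lower in the resistant sources more often than higher. Over the collagens, small leucine-rich proteoglycans and elastic fibre and matrix glycoprotein genes together, 32 of 84 lay lower and 4 higher, with a median of -0.24. Of the 84, 22 lay lower without overlap of arrays, against 2.47% of all genes tested. These are 22 of the 32 separated lower, against 19% of all genes separated lower. Dcn, decorin, had resistant arrays from -3.12 over -2.93 to -2.28 and sensitive arrays from -1.37 over -0.78 to 0.19. The resistant sources were close together at -3.03 to -2.76, while NSF at -0.01 ± 0.28 and TAF-tib6 at -1.31 ± 0.07 were apart. The difference was -2.21 (SE 0.382, adjusted p = 0.26).

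Of 15 small leucine-rich proteoglycan genes 10 lay lower, and only Podnl1 lay higher (0.40, adjusted p = 0.483). Ogn, osteoglycin, differed by -1.70 (SE 0.483, adjusted p = 0.407) and Aspn, asporin, by -1.20 (SE 0.335, adjusted p = 0.407), both with TAF-tib6 far above NSF (-0.02 against -1.30 for Ogn, 0.81 against -0.34 for Aspn). Bgn, biglycan, was even within groups, at 0.92 to 1.03 in the resistant and 1.38 and 1.39 in the sensitive sources. Its difference was -0.41 (SE 0.0471, adjusted p = 0.247). Podn, podocan, differed by -0.33 (SE 0.0419, adjusted p = 0.247).

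Of 26 collagen genes 9 lay lower and 1 higher (median -0.24). Col6a1, a chain of microfibrillar collagen VI, had resistant arrays at -1.84 to -1.05 and sensitive arrays at -0.45 to 0.15 (difference -1.19, SE 0.238, adjusted p = 0.311). The basement membrane chain Col4a5 differed by -0.65 (SE 0.0499, adjusted p = 0.214), with the lowest adjusted p of this list. Col8a2 differed by -0.73 (SE 0.267, adjusted p = 0.506). The fibril-associated Col14a1 differed by -1.09 (SE 0.315, adjusted p = 0.41), its arrays overlapped and its second probe differed by -0.01. Without the third TAF-tib48 array its arrays did not overlap, and the gap was -0.70.

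Mgp, the matrix Gla protein that inhibits calcification, had resistant arrays from -0.94 over 0.06 to 0.54 and sensitive arrays from 1.35 over 1.86 to 2.31. Its array values did not overlap, and the difference was -1.95 (SE 0.46, adjusted p = 0.352). Of the microfibril genes, Mfap2 differed by -1.04 (SE 0.242, adjusted p = 0.35; -0.02 at its second probe) and Fbn2, fibrillin-2, by -0.97 (SE 0.269, adjusted p = 0.402). The matricellular Ccn3 differed by -1.76 (SE 0.601, adjusted p = 0.481). Its highest resistant array (-0.20) all but touched its lowest sensitive array (-0.20). The collagen receptor subunit Itga11 differed by -1.83 (SE 0.543, adjusted p = 0.423), most strongly in TAF-tib48 at 2.39 against 5.39 in TAF-tib6 and 4.39 in NSF.

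Proteases and their inhibitors lay lower in 13 of 36 genes and higher in 2. Mmp2, a gelatinase, differed by -0.80 (SE 0.258, adjusted p = 0.452), and Reck, a membrane inhibitor of such metalloproteases, by -0.73 (SE 0.0752, adjusted p = 0.242). Adamts1 differed by -0.90 (SE 0.222, adjusted p = 0.362; -0.65 at its second probe) and the plasminogen activator Plat by -0.43 (SE 0.0685, adjusted p = 0.256; -0.28 at a second probe that was not separated). Array values did not overlap in any of these 4. Over the list this held for 7 genes, against 2.47% of all genes tested. Ctsl, with a gap of -0.36, wider than that of Plat (-0.31), had overlapping arrays (difference -0.58, adjusted p = 0.259). Of 22 myofibroblast and contractile genes 6 lay higher and 1 lower (median 0.03), and none of the 6 was apart by array.

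**Figure D4:**
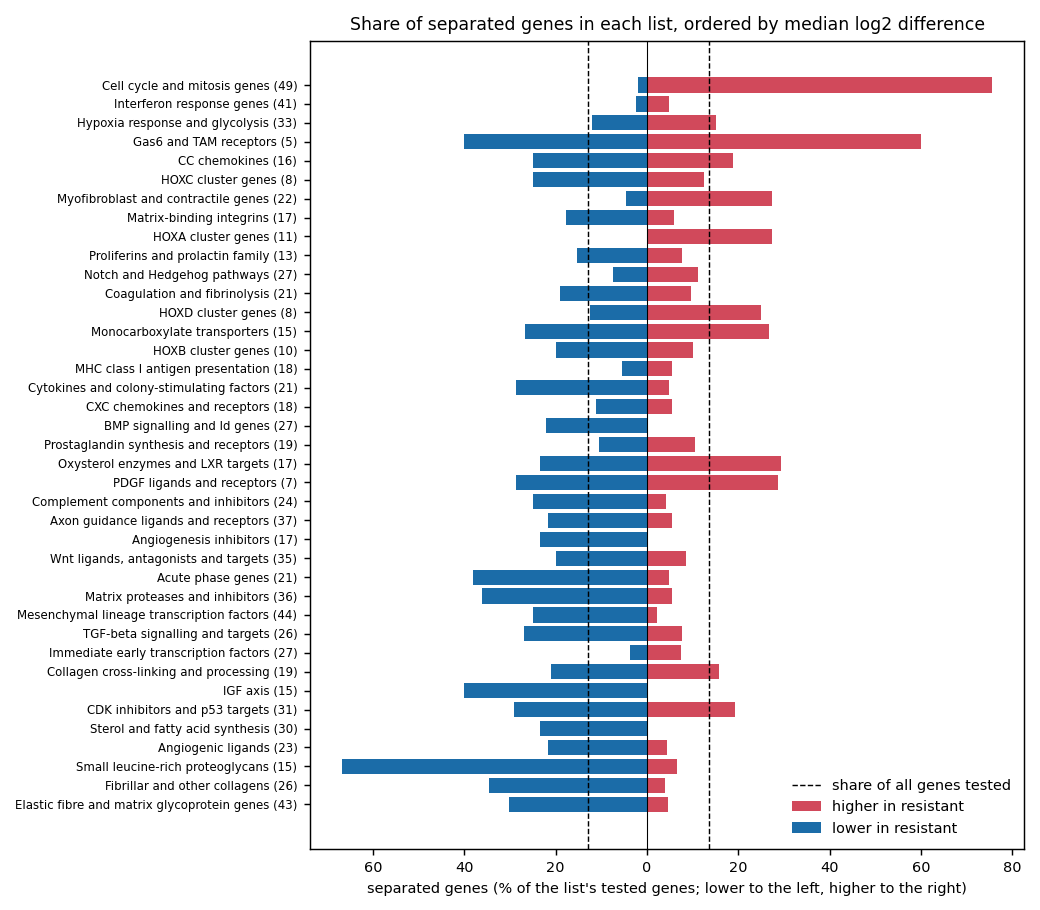
Share of each list's tested genes (number in brackets) that was separated, higher to the right and lower to the left, with lists ordered by their median log2 difference. Dashed lines mark the shares among all genes tested, 13.6% higher and 13% lower; the cell cycle list has 37 of 49 higher and the small leucine-rich proteoglycans have 10 of 15 lower.

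The lists hold 872 tested genes between them, none of which was called by limma, while 165 had an unadjusted p under 0.05 (54 higher, 111 lower); limma with an intensity trend and robust moderation called Mela alone, which is in no list. In the TGF-beta list 7 of 26 genes lay lower and 2 higher (median -0.09). Its receptor Tgfbr2 differed by -0.87 (SE 0.234, adjusted p = 0.389), and by -0.10 at its second probe. Of 27 BMP and Id genes 6 lay lower and none higher (median -0.02). The Id proteins block basic helix-loop-helix factors, and Id3 (-0.87, SE 0.284, adjusted p = 0.46) and Id2 (-0.79, SE 0.233, adjusted p = 0.42; -0.52 at its second probe) both had arrays that did not overlap. Of 35 Wnt genes 7 lay lower and 3 higher, among the former the ligand Wnt16 (-0.39, SE 0.0483, adjusted p = 0.247) and the secreted Wnt antagonists Sfrp2 (-0.61, SE 0.131, adjusted p = 0.332) and Sfrp4 (-0.46, SE 0.0832, adjusted p = 0.28). Epha4, a receptor of ephrins, had resistant arrays from 0.23 over 1.22 to 1.29 and sensitive arrays from 2.29 over 2.39 to 2.49. It differed by -1.48 (SE 0.32, adjusted p = 0.334), and by -0.48 at its second probe.

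Hox genes keep the positional identity of fibroblasts. Hoxa10 was nearly level within each group, with resistant arrays from 0.67 over 0.78 to 0.87 and sensitive arrays from -0.17 over -0.06 to 0.05. The array values did not overlap, and the source means were 0.81, 0.74 and 0.77 in TAF-el4, TAF-tib42 and TAF-tib48 against -0.15 in NSF and 0.03 in TAF-tib6. Its difference was 0.83 (SE 0.0644, adjusted p = 0.214). Of 11 genes of this cluster, Hoxa7 (0.81, SE 0.187, adjusted p = 0.345) and Hoxa9 (0.23, SE 0.103, adjusted p = 0.598) lay higher as well and none lower. Hoxa9 was no longer separated without the third TAF-tib48 array. Of 10 HOXB genes, Hoxb2 (-0.58, SE 0.129, adjusted p = 0.344) and Hoxb5 (-0.26, SE 0.0445, adjusted p = 0.256) lay lower without overlap of arrays. Such lower genes were 2.47% of all tested. Hoxb3 lay higher (0.17, adjusted p = 0.586) with a gap of 0.02. Of 8 HOXC genes 2 lay lower and 1 higher, and of 8 HOXD genes 1 lay lower and 2 higher. Of the 44 mesenchymal lineage transcription factors 11 lay lower and 1 higher (median -0.08).

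Cyp7b1, the oxysterol hydroxylase of the alternative bile acid pathway, had resistant arrays from 0.07 over 0.72 to 1.25 and sensitive arrays from 2.54 over 3.05 to 3.41. The arrays did not overlap, and the difference was -2.28 (SE 0.297, adjusted p = 0.247). Abca1, the cholesterol efflux pump, differed by -0.94 (SE 0.19, adjusted p = 0.313), whereas the oxysterol-binding protein gene Osbpl3 lay higher by 0.61 (adjusted p = 0.471). Of 30 sterol and fatty acid synthesis genes 7 lay lower and none higher (median -0.12). Sqle, squalene epoxidase, had resistant arrays at -0.70 to -0.34 and sensitive arrays at -0.03 to 0.07 (difference -0.48, SE 0.0853, adjusted p = 0.273), and Nsdhl, a later enzyme of cholesterol synthesis, differed by -0.36 (adjusted p = 0.35; -0.22 and -0.11 at its other probes, the latter not separated). Gyg, glycogenin, the primer of glycogen synthesis, differed by -1.12 (SE 0.175, adjusted p = 0.256). The enolase Eno3 lay higher by 0.83 (SE 0.207, adjusted p = 0.365). Of 33 hypoxia and glycolysis genes 5 were separated higher and 4 lower, near the 13.6% and 13% of all genes tested.

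On the sensitive side, TAF-tib6 was more often nearest to the resistant group than NSF in both directions. Among the 63 lower genes with a gap over 0.5, the highest resistant source was TAF-el4 in 37, TAF-tib42 in 15 and TAF-tib48 in 11. The lowest sensitive source was TAF-tib6 in 41 and NSF in 22. Among the 9 higher genes the lowest resistant source was each of the 3 in 3 genes. The highest sensitive source of these was TAF-tib6 in 6 and NSF in 3. Within slide packs, 3809 of the higher genes (89.6%) and 3707 of the lower genes (91.4%) had both differences, TAF-el4 minus NSF and TAF-tib48 minus TAF-tib6, in their direction, which the rule on source means largely fixes. With slide pack as a block, 2325 of the 4249 higher and 2386 of the 4056 lower genes stayed separated, and 9 of 9 and 62 of 63 of those with a gap over 0.5.

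Some sizes depended on 1 source or on the processing. With the scanner's own ratios, to which no offset was added, 10 of the genes above differed by more than 1.5 times as much in the same direction, among them Slc16a4 (-2.04), Aspn (-2.73), Ccl11 (-1.89), Serpina3n (-1.89), Il33 (-1.52), Col8a2 (-1.43) and Wnt16 (-1.19). Podn (-0.84), Sfrp4 (-0.91) and Osbpl3 (0.98) were the others. Without TAF-tib6 the differences of Aspn (-0.62), Ogn (-1.06), Ccn3 (-0.99), Fbn2 (-0.50), Col8a2 (-0.27), Hgf (-0.48), Ptgs1 (0.76), Osbpl3 (0.27), Il1rn (-0.21) and Pdgfrl (-0.38) were smaller by more than 1.5 times. Il33 was larger without this source (-1.47). Without NSF the difference was smaller by as much for C4b (-0.60), Lbp (-0.49), Serpina3n (-0.55), Id2 (-0.47), Il33 (-0.33), Ackr3 (-0.41) and Podnl1 (0.22), and larger by as much for Pdgfrl (-2.15), Il1rn (-1.48), Col8a2 (-1.20) and Osbpl3 (0.96). Without TAF-tib48 it was smaller for Hp (-1.43), Ccl7 (-0.69), Thbs1 (-0.53) and Ackr3 (-0.46), without TAF-el4 for Cdc20 (0.49) and without TAF-tib42 for Zmat3 (-0.30), which stood at -0.44 with slide pack as a block. Median differences of lists moved likewise. Over 22 other settings the small leucine-rich proteoglycans ran from -0.39 with the scanner's ratios to -0.10 without TAF-tib6. The collagens ran from -0.25 without TAF-tib48 to -0.10 with scaled log ratios, and stood at -0.13 without NSF. The matrix glycoproteins ran from -0.38 without TAF-tib48 to -0.15 with scaled log ratios, and stood at -0.17 without TAF-tib42. The angiogenic ligands ran from -0.24 with Cy5 alone to -0.06 without NSF, and stood at -0.10 without TAF-el4 or without TAF-tib48. The acute phase genes reached -0.17 with the scanner's ratios and the complement genes -0.13 without TAF-tib6, and the cell cycle genes ran from 0.24 without TAF-el4 to 0.46 without TAF-tib42. Of the lists whose median is given above, the sign turned only for the myofibroblast and contractile genes (-0.04 without TAF-el4).

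Other probes of the same genes gave a second measurement on the same RNA. For 819 higher symbols with 995 other probes, 411 probes (41.3%) were separated higher and 50 lower. For 753 lower symbols with 941 other probes, 301 (32%) were separated lower and 59 higher. Among 4288 other probes of genes whose brightest probe was not separated, the shares were 14.8% higher and 8.72% lower. Of 15 other probes of lower genes with a gap over 0.5, 11 were separated lower (73.3%) and 4 not at all, those of C3, Mfap2 and Col14a1 among the latter.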

How the data were processed

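Total RNA was measured on 15 Agilent 2-colour arrays. The deposited scanner files give spot intensities per dye and the scanner's log10 ratio of red to green signal, both per the file headers, which name Agilent Feature Extraction 8.5.1.1; a protocol label names another version. The authors' deposited table holds log2 ratios that followed the scanner's, with medians of 0.0337 to 0.0511, so it was not centred; its direction is Cy5 over Cy3. The sources used here name no genome build for the probes.

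Intensities were corrected by normexp (offset 50) and loess in limma 3.58.1 (R 4.3.3), with control spots at weight 0 and then removed and outlier spots left out. Of 41174 probes, 22207 were named by accession through RefSeq of GRCm38.p6, 1536 by description or gene name, and 17431 kept the file's name. The brightest probe stood for a gene, which was tested if well above background in Cy5 on all 3 arrays of 1 source or more; 2291 of 33482 names were not. Source means were compared by limma (two-sided, Benjamini-Hochberg over 31191 genes, threshold 0.05), with no p for the separation, which is the rule itself. Named were the 15 widest gaps in each direction among symbols, up to 6 separated genes per list and direction, lists of up to 12 genes whole, Pdgfa, Pdgfc and Vegfa, and the genes at the edge of the rule; clone, predicted and accession names were passed over, and 1 gene so named is not reported. Cell cycle genes outside this rule, macrophage markers and unseparated list members were named after their values were seen. The members, 39 pathway lists and 10 marker lists were chosen with earlier results of these data known. The steps were tested on simulated data. Alternatives covered the correction, scaling, channel, filter, probe choice, moderation, blocks and left-out arrays or sources; leaving out 1 TAF-tib48 array was added after seeing the data.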

Additional observations from a re-analysis of the deposited data

How the results depend on the processing

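Counts of separated genes stayed within 1.5 times of 4249 and 4056 under the other settings, except that leaving out a source loosens the rule (over all arrays or sources left out, 3919 to 8347 higher and 3913 to 8438 lower). Calls were 0 without background subtraction and with scaled log ratios. With all 15 arrays as units and source as a random block they were 1464, with the replicate block 1219 and with slide pack as a block 1223; these fits count arrays of 1 source as partly independent. Same-numbered arrays of different sources deviated together at a median r of -0.03, so the numbers do not pair them. Leaving out a source gave 0 to 9 calls (9 without TAF-el4, 0 without each other source), and leaving out a replicate number 1 to 1.

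All 72 genes with a gap over 0.5 kept their side where separation was recomputed, except 1 with slide pack as a block. With the filter on all 15 arrays, 59 of the 63 lower ones were tested. Leaving out a source, changing the filter or changing only the test could not undo a separation, so those settings are no check of it. Of all members, Cy5 intensity alone kept 1815 of 4249 higher and 2064 of 4056 lower. Signs turned for Pdgfrb (0.14 with scaled log ratios; -0.19 to 0.13 with arrays or sources left out), Mertk (-0.039 from Cy5 alone), Dmac2 (0.007 with the median of probes), Pdgfb (-0.02 with slide pack as a block; -0.046 to 0.069 left out) and Vegfa (-0.25 to 0.082 left out), none past the threshold. The cause was not tested. With 3 and 2 sources per group, and no second label for any source, differences between sources and between responses cannot be told apart.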

Other observations

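Runs of neighbouring genes separated in the same direction were looked up in the RefSeq order of GRCm38.p6 after the values were seen. There were 18 runs of 4 or more tested neighbours, 9 higher and 9 lower. Of the 16065 symbols tested, 2476 were separated higher and 2068 lower. They included Ecm2, Aspn, Omd and Ogn, neighbouring proteoglycan genes that lay lower, Gas6 with its neighbours Grk1, Rasa3 and Cdc16, and Il6st with Map3k1, Ankrd55, Il31ra and Ddx4. The longest was a higher run of 7 genes from Smpx to Pdha1. The smallest gap was 0.023 in the run of Ecm2, 0.019 in that of Gas6, 0.001 in that of Il6st and 0.006 in the longest. Each lay below the median SD of 0.053 between arrays of a source. No test was made of how many runs such shares of separated genes give.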
